A study of Mus musculus with 16 samples.

Results

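The ectodysplasin receptor pathway was read through 5 genes: Eda, the ligand ectodysplasin, Edar, the receptor of its A1 form, Eda2r, the receptor of its A2 form, Tnfrsf19, a related receptor also called Troy, and Edaradd, the adaptor that binds the inside of Edar. They were chosen by symbol, and every probe set assigned to one of these symbols and no other was kept, which gave 16 probe sets among the 45101 on the array and 5 genes among 18193. The cells were sorted by flow cytometry from tail epidermis of mice of mixed strain background, and their RNA was hybridised to Affymetrix expression arrays. Basal cells of the interfollicular epidermis (IFE, the skin surface between hair follicles) came from K14CREER/Rosa-SmoM2-YFP mice, whose Cre is driven in keratin 14 expressing cells and, after tamoxifen, switches on SmoM2, an always active form of Smoothened that turns on hedgehog signalling and models basal cell carcinoma. Cells of the hair follicle bulge came from K19CREERT2/Rosa-SmoM2-YFP mice.

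The 16 arrays form 8 groups. After tamoxifen, IFE cells with SmoM2 were taken at 3 days in 1 array, at 1 week in 3, at 4 weeks in 3 and at 10 weeks in 2. In 2 more arrays, called β-catenin loss here, the 4-week IFE cells came from mice with b-cat flox/flox added to K14CREER/Rosa-SmoM2-YFP, which lose β-catenin as SmoM2 is switched on. The IFE controls (n = 3) came from untreated K14CREER/Rosa-SmoM2-YFP mice, so they carry the same transgenes and differ from the SmoM2 groups in tamoxifen as well. Bulge SmoM2 cells at 4 weeks (n = 1) were set against an array labelled bulge control (n = 1). The labels give that array as untreated and of the same genotype. Its hedgehog target signal was close to that of bulge SmoM2 cells, as described below. β-catenin loss was studied together with SmoM2 and not by itself. The ages of the mice are not in the labels, and they do not say whether replicates came from different mice. The p-values therefore describe sample-to-sample spread, which may be partly technical.

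Ectodysplasin is a ligand of the tumour necrosis factor (TNF) family that ectodermal cells shed. It binds Edar, which recruits Edaradd and, through TRAF and TAB proteins and the IKK kinases, frees NF-κB to enter the nucleus. The pathway is best known for forming hair placodes, teeth and sweat glands: loss of Eda, Edar or Edaradd gives the tabby, downless and crinkled mice, which lack primary hairs, including the hair of the tail. In placodes, Wnt/β-catenin signalling lies upstream of Edar, and Shh is among the genes that act downstream. Eda2r is also a target gene of p53, and Tnfrsf19 is expressed in developing hair follicles.

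Because hedgehog and β-catenin were the pathways changed in these mice, the sequence before each start site was searched for a TCF/LEF core, CTTTGA or TCAAAG, and for a GLI core, ACCACCC or GGGTGGT. The windows were the 250 bases before the start, from RefSeq on GRCm38.p6, and both strands were searched. All 5 genes matched, with 6 windows, since Tnfrsf19 has an added start. The TCF/LEF core was found in 2 of the 6 windows, which are printed here because the β-catenin comparison bears on them, with the core in capitals. Among 32851 promoter windows of the same length, 13.8% held it. The GLI core was in 0 of the 6 windows and in 3.92% of all windows. A match of these letters is a description of the window and not a bound site.
Edar promoter, chr10:58675697-58675946, minus strand: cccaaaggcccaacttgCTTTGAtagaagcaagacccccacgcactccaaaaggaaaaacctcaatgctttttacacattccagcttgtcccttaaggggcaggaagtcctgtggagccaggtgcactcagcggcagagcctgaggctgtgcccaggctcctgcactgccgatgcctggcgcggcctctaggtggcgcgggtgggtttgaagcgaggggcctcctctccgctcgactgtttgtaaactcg
Tnfrsf19 promoter at its added start, chr14:61037988-61038237, minus strand: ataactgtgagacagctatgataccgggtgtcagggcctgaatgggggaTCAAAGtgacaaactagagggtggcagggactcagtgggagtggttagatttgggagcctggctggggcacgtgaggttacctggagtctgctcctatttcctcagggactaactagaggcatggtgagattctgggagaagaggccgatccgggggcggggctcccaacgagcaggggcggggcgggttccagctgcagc
The core starts at position −233 from the Edar start and −201 from that Tnfrsf19 start.

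On the same build Edar lies on chromosome 10, Edaradd on chromosome 13, Tnfrsf19 on chromosome 14, and Eda and Eda2r on the X chromosome. All values below are log2 array signals as deposited, and each gene was tested on its probe set of highest mean. Differences are of log2 means ± SE with adjusted p-values from limma, Benjamini-Hochberg over 14285 genes, with a threshold of 0.05. The 5 genes passed the filter on low signal, a signal higher than the 40th percentile of its array, reached in 2 or more arrays. Of their 16 probe sets, 13 passed it and 3 did not. Signals of different probe sets cannot be set against each other as amounts of RNA.

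Several arrays stood apart. Gli1, a direct hedgehog target, had signals of 9.95 to 10.83 at 4 weeks and 5.30 to 5.73 in IFE controls, a difference of 4.91 ± 0.54 (adjusted p = 0.00587). Bulge SmoM2 cells had 9.96 and the bulge control 9.89, and 1 label of that control names SmoM2-positive cells. It is therefore called the array labelled bulge control throughout. Whether untreated bulge cells have such a Gli1 signal, or the label is wrong, was not tested. With β-catenin loss the Gli1 signals were 7.22 in replicate 1 and 9.56 in replicate 2, both below the 4-week arrays with SmoM2 alone, a difference of −2.06 ± 0.60 (unadjusted p = 0.00550, adjusted p = 0.0995 by limma). Ptch1, which encodes the hedgehog receptor, had 10.71 and 12.50 with β-catenin loss and 12.64 to 13.60 with SmoM2 alone, so replicate 1 of β-catenin loss stood apart in both genes. Ctnnb1, which encodes β-catenin, had 12.76 and 12.93 in β-catenin loss cells and 12.76 to 13.04 in IFE controls. The position of its probes against the floxed exons was not examined, so these values do not check the deletion. The 40th percentile was 4.99 to 5.01 in the replicate 2 arrays of the IFE controls, 1 week and 4 weeks, and 4.88 to 4.93 in the other 13. Across those 3 groups, arrays of the same number deviated from their group means together, so the number is taken as a pairing there. Pairs of the same replicate number that involve 10 weeks or β-catenin loss did not deviate together, with correlations of −0.18 to 0.12. The arrays also carry experiment numbers, which differ from the replicate numbers at 10 weeks, where replicates 1 and 2 are experiments 2 and 3. By experiment number, pairs that involve 10 weeks or β-catenin loss had correlations of −0.18 to 0.18. Sexes were not balanced: the mean Y-linked signal was 8.10 and 8.15 at 10 weeks and 3.41, 8.18 and 3.43 in IFE controls. Several arrays held both Y-linked and Xist signal, such as 3 days with 7.55 and 10.81, 1-week replicate 3 with 7.38 and 9.84 and β-catenin loss replicate 2 with 6.91 and 12.43, so the Y-linked signal does not sort the arrays into 2 sexes. Markers of other cells also differed: bulge and outer root sheath markers averaged 9.54 to 10.39 at 4 weeks and 7.94 to 8.33 in IFE controls, and melanocyte markers 5.76 to 5.77 with β-catenin loss and 7.34 to 9.42 in IFE controls. Their part in the results was not tested. Basal markers such as Krt5 and Krt14 averaged 11.64 to 12.72 over all arrays, endothelial markers 4.43 to 5.16 and skeletal muscle markers 4.29 to 4.77. In bulk samples, fewer cells of a type and less RNA per cell cannot be told apart.

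No gene of the pathway passed the test in any of the 11 comparisons. Percentages of all tested genes that passed, in either direction, were 0% at 3 days and 0% at 1 week, 3.24% at 4 weeks and 0.7% at 10 weeks, each against IFE controls. They were 0.371% for β-catenin loss against IFE controls and 2.23% for β-catenin loss against SmoM2 alone. Between SmoM2 stages they were 0% for 4 weeks against 1 week, 0% for 10 weeks against 4 weeks and 0.021% for 10 weeks against 1 week. For the array labelled bulge control against IFE controls it was 4.04%, and for bulge SmoM2 against IFE SmoM2 0.112%. At an unadjusted p under 0.05 the shares were 1.55% at 3 days (222 genes), 4.74% at 1 week (677 genes), 15.1% at 4 weeks and 10.6% at 10 weeks. They were 14.6% and 17.2% for β-catenin loss against IFE controls and against SmoM2 alone. For 4 weeks against 1 week the share was 4.82% (688 genes), for 10 weeks against 4 weeks 6.25% (893 genes) and for 10 weeks against 1 week 5.96%. For the array labelled bulge control against IFE controls it was 14.4% and for bulge SmoM2 against IFE SmoM2 5.58%. With the replicate number as a block the count at 4 weeks was 873 genes, in place of 463, and still held 0 of the 5. Without control replicate 2 it was 13 genes. At 10 weeks the count was 100 genes, against 1547 with array weights and 0 when the 2 closely alike 10-week arrays were averaged into 1. For β-catenin loss against SmoM2 alone it was 318 genes, and 2 without β-catenin loss replicate 1. For β-catenin loss against IFE controls it was 53 genes, and 1 without control replicate 3. For 10 weeks against 1 week it was 3 genes, and 400 with array weights, and for the array labelled bulge control against IFE controls 577, and 1404 with array weights. A single test of any difference among the IFE groups, the limma F-test, passed for 1.13% of genes and for 0 of the 5, with adjusted p-values from 0.269 for Eda to 0.940 for Eda2r. By comparison, Gli1 had 0.0220 and Ptch1 0.0204.

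**Figure D1:**
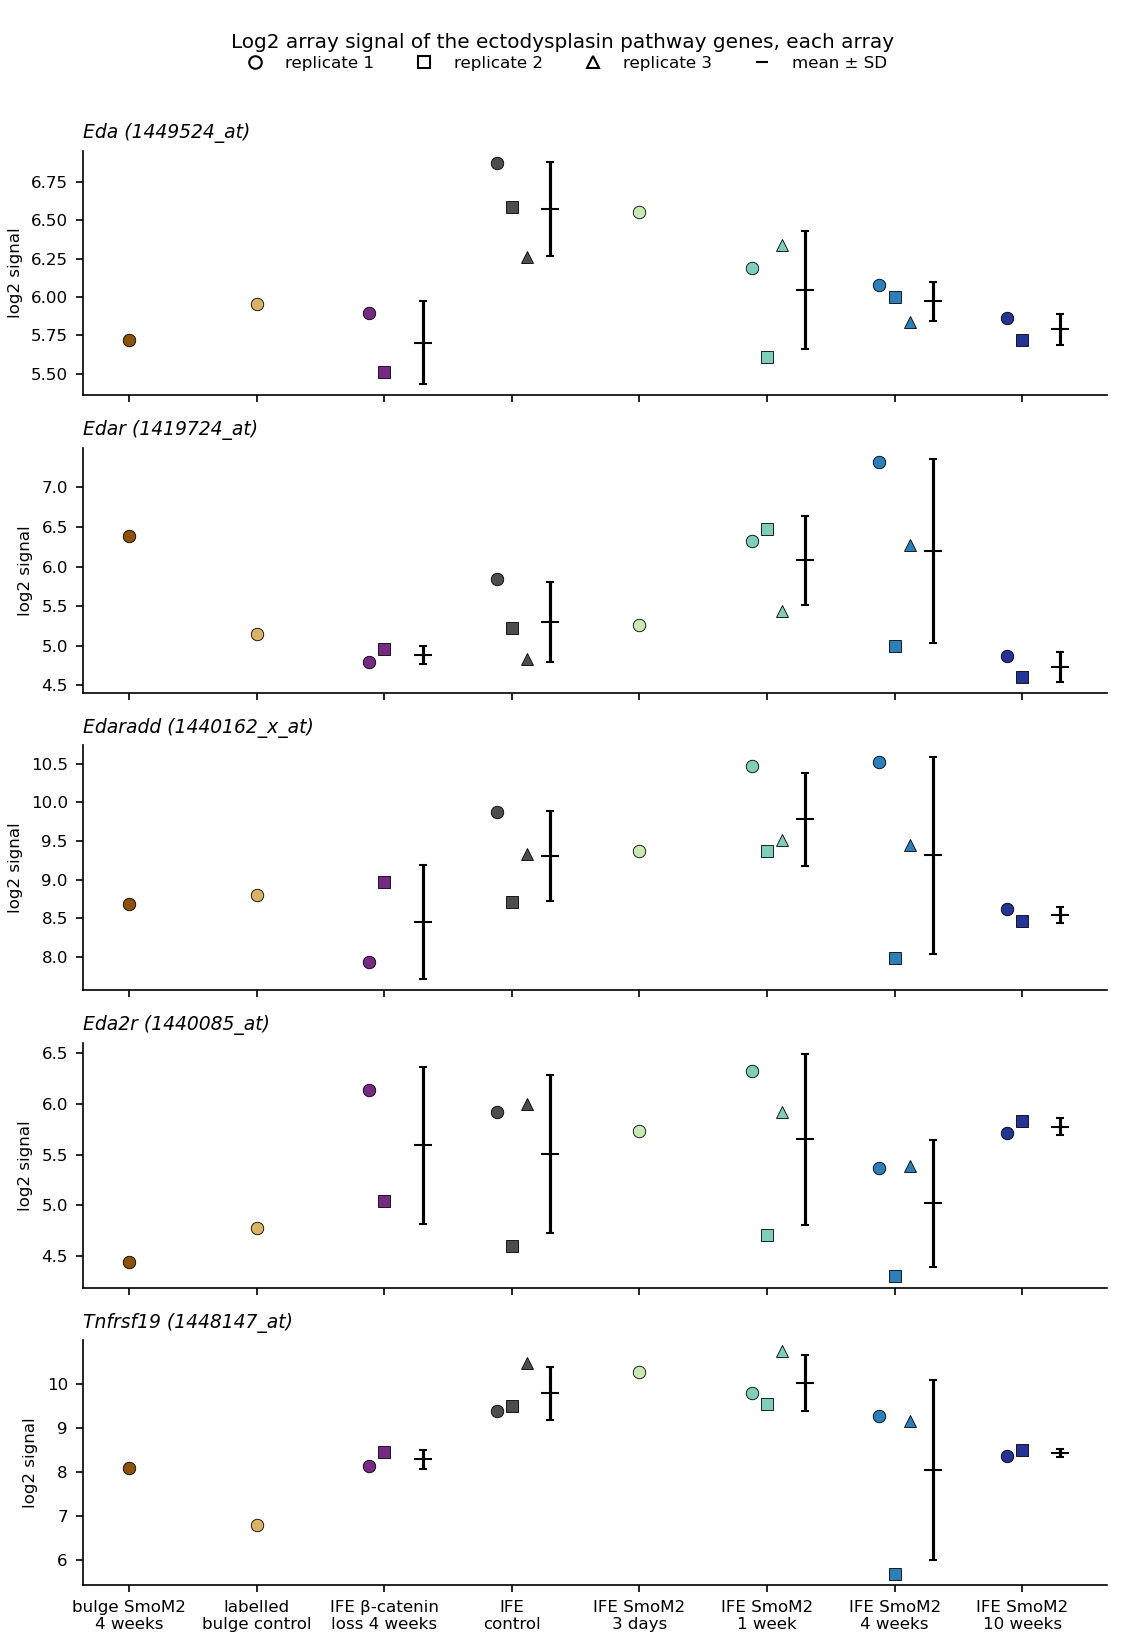
Log2 array signal (y axes, each with its own range) of the 5 pathway genes in each of the 16 arrays, by group (x axis), with the marker shape giving the replicate number and bars giving mean ± SD where a group has more than 1 array. Eda lay lower in every 4-week, 10-week and β-catenin loss array than in any IFE control, and Tnfrsf19 at 4 weeks is spread from 5.68 to 9.27.

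Eda, the ligand, was lower in the later SmoM2 arrays than in the controls on its probe set of highest mean. On probe set 1449524_at its log2 signals were 6.88, 6.59 and 6.26 in IFE controls, 6.55 at 3 days, 6.19, 5.61 and 6.34 at 1 week, 6.08, 6.0 and 5.83 at 4 weeks, and 5.86 and 5.72 at 10 weeks. With β-catenin loss they were 5.89 and 5.51. The arrays at 4 weeks, at 10 weeks and with β-catenin loss all lay below the lowest control, while those at 1 week overlapped the controls. Among all tested genes, 8.12% lay wholly below the controls at 4 weeks, 20.5% at 10 weeks and 20.7% with β-catenin loss, so such a separation is common with 2 or 3 arrays a group.

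Mean Eda signal was 5.97 ± 0.12 at 4 weeks and 6.57 ± 0.31 in IFE controls (SD, n = 3 each), a difference of −0.60 ± 0.23 (95% interval −1.11 to −0.10, unadjusted p = 0.0230, adjusted p = 0.220 by limma). The difference was −0.53 ± 0.23 at 1 week (adjusted p = 0.993 by limma), −0.79 ± 0.26 at 10 weeks (adjusted p = 0.217) and −0.87 ± 0.26 with β-catenin loss against IFE controls (adjusted p = 0.150). These 4 comparisons share the same 3 control arrays. With array weights, which give less weight to arrays far from their group, Eda at 10 weeks passed, with −0.72 (adjusted p = 0.0182 by limma). It was then 1 of 1547 genes that passed at 10 weeks, against 100 genes without weights. In the unweighted fit Eda had unadjusted p-values under 0.05 in 4 of 11 comparisons and passed the adjusted threshold in 0. Between arrays of the same number, Eda at 4 weeks minus IFE control was −0.80, −0.59 and −0.43, and at 1 week it was −0.69, −0.98 and 0.08. The β-catenin loss and SmoM2 alone arrays overlapped for Eda, with a difference of −0.27 ± 0.26 (95% interval −0.83 to 0.30, adjusted p = 0.650).

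The other Eda probe sets did not show the same size of difference. Probe set 1419597_at had a difference of −0.34 between 4 weeks and IFE controls (adjusted p = 0.657 in the limma fit of all 26056 probe sets that passed the filter), and 1419596_at differed by −0.00. At 1 week 1419597_at and 1419596_at differed from IFE controls by −0.01 and 0.05, and at 10 weeks by −0.28 and −0.03. With β-catenin loss they differed from IFE controls by −0.49 and −0.20. Probe sets 1451877_at and 1451925_at lay below the 40th percentile in all 16 arrays. Over the 16 arrays the correlation of 1449524_at with 1419597_at was 0.34 and with 1419596_at 0.33. As Eda is X-linked and the Y-linked signal was uneven, that signal was also added to the model, and the difference was then −0.70 at 4 weeks (adjusted p = 0.239 by limma) and −0.91 at 10 weeks (adjusted p = 0.224). In the bulge, Eda had 5.72 in SmoM2 cells and 5.95 in the array labelled control.

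Edar, the receptor of the placode pathway, had its highest IFE signals in SmoM2 arrays at 1 and 4 weeks. On probe set 1419724_at the log2 signals were 5.84, 5.23 and 4.84 in IFE controls, 5.26 at 3 days, 6.32, 6.48 and 5.44 at 1 week, 7.32, 5.0 and 6.27 at 4 weeks, and 4.87 and 4.60 at 10 weeks. With β-catenin loss they were 4.80 and 4.97. The 4-week arrays spread over more than 2 log2 units and overlapped the controls. The probe set lay above the 40th percentile of its array in 11 of 16 arrays. Those below it were both 10-week arrays, β-catenin loss replicate 1, 4-week replicate 2 and control replicate 3, so differences that involve them are set partly by signal near the low end of the array. Its other probe set, 1447498_at, lay below that percentile in all 16 arrays, with signals of 3.03 to 3.46.

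Mean Edar signal was 6.20 ± 1.16 at 4 weeks and 5.30 ± 0.51 in IFE controls (SD, n = 3 each), a difference of 0.89 ± 0.49 (95% interval −0.19 to 1.97, adjusted p = 0.458 by limma). Between arrays of the same number the differences were 1.48, −0.23 and 1.43. Leaving out 4-week replicate 1 gave 0.33 (adjusted p = 0.798) and leaving out 4-week replicate 2 gave 1.49 (adjusted p = 0.0989). Without the replicate 2 arrays of the IFE controls, 1 week and 4 weeks, a choice made after seeing the data, the difference was 1.45 (adjusted p = 0.188 by limma). At 1 week it was 0.77 ± 0.49 (95% interval −0.30 to 1.85, adjusted p = 1.00), with 0.47, 1.25 and 0.60 between arrays of the same number. At 10 weeks it was −0.57 ± 0.55 (adjusted p = 0.851).

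With β-catenin loss, Edar was lower in both arrays than in every 4-week array with SmoM2 alone. The means were 4.88 ± 0.12 (SD, n = 2) with β-catenin loss and 6.20 ± 1.16 (SD, n = 3) with SmoM2 alone, a difference of −1.31 ± 0.55 (95% interval −2.52 to −0.11, unadjusted p = 0.0352, adjusted p = 0.248 by limma). Of all tested genes, 17.6% lay wholly below SmoM2 alone in this comparison. Leaving out 4-week replicate 1 gave −0.75 and leaving out 4-week replicate 2 gave −1.91. Gli1 and Ptch1 were lower in the same comparison, most of all in β-catenin loss replicate 1, and without that array the Edar difference was −1.23 (adjusted p = 0.613). The part of hedgehog signal in it was not tested. The 10-week mean differed from the 4-week mean by −1.46 ± 0.55 (unadjusted p = 0.0219, adjusted p = 0.794) and from the 1-week mean by −1.34 ± 0.55 (adjusted p = 0.785, a comparison added after seeing the data). Both 10-week values lay below the 40th percentile of their arrays, 4.91 and 4.92, so the sizes of these differences are poorly measured. The groups did not overlap in either, and 13.5% and 17.2% of all tested genes lay wholly lower in them. The difference between β-catenin loss and IFE controls was −0.42 ± 0.55 (95% interval −1.63 to 0.78, adjusted p = 0.739).

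In the bulge, Edar had 6.39 in SmoM2 cells and 5.15 in the array labelled control, a difference of 1.24 that rests on 1 array each and has no test. Bulge SmoM2 cells differed from IFE SmoM2 cells at 4 weeks by 0.20 ± 0.70 (adjusted p = 0.991 by limma). The order of group means for Edar was bulge SmoM2 at 6.39, IFE SmoM2 at 4 weeks at 6.20 and at 1 week at 6.08, then IFE controls at 5.30, 3 days at 5.26, the array labelled bulge control at 5.15, β-catenin loss at 4.88 and 10 weeks at 4.74. The widest step in this order, 0.77 between 1 week and IFE controls, is the difference already tested above.

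Eda2r, the receptor of the A2 form of ectodysplasin, was lowest in the replicate 2 array of 3 groups. On its single probe set, 1440085_at, the log2 signals were 5.92, 4.60 and 6.0 in IFE controls, 5.73 at 3 days, 6.32, 4.70 and 5.92 at 1 week, 5.37, 4.30 and 5.39 at 4 weeks, and 5.72 and 5.83 at 10 weeks. With β-catenin loss they were 6.14 and 5.05. In each of the IFE control, 1-week and 4-week groups the replicate 2 array was the lowest, at −1.36, −1.42 and −1.08 log2 units from the mean of the other arrays of its group. Those arrays and both bulge arrays are the 5 in which Eda2r lay below the 40th percentile, so the sizes of these deviations are poorly measured. The deviation placed Eda2r in the lowest 0.917% of tested genes in the controls, 1.88% at 1 week and 6.24% at 4 weeks. The cause was not tested. Groups overlapped in every comparison with IFE controls.

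Mean Eda2r signal was 5.02 ± 0.63 at 4 weeks and 5.51 ± 0.78 in IFE controls (SD, n = 3 each), a difference of −0.49 ± 0.50 (95% interval −1.58 to 0.61, adjusted p = 0.765 by limma). Within the numbers the differences were −0.55, −0.31 and −0.61, and with the number as a block the difference was −0.49 ± 0.28 (adjusted p = 0.391 by limma). At 1 week it was 0.14 ± 0.50 (adjusted p = 1.00), at 10 weeks 0.27 ± 0.56 (adjusted p = 0.940), and 0.58 ± 0.56 for β-catenin loss against SmoM2 alone (adjusted p = 0.655). Bulge SmoM2 cells had 4.44 and the array labelled bulge control 4.78, both below the 40th percentile of 4.91, so no order is read between them.

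Tnfrsf19, the Troy receptor, had lower means in the later SmoM2 groups, but 1 array carried much of the 4-week value. On probe set 1448147_at the log2 signals were 9.37, 9.50 and 10.48 in IFE controls, 10.27 at 3 days, 9.78, 9.54 and 10.73 at 1 week, 9.27, 5.68 and 9.16 at 4 weeks, and 8.36 and 8.49 at 10 weeks. With β-catenin loss they were 8.13 and 8.44. All arrays at 4 weeks, at 10 weeks and with β-catenin loss were below the lowest control, as were 8.12%, 20.5% and 20.7% of all tested genes. Of the 4-week arrays, replicates 1 and 3 were close to that control, and 4-week replicate 2 was at −3.53 from the mean of the other 4-week arrays. Only 0.042% of tested genes deviated as far downward in that array.

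Mean Tnfrsf19 signal was 8.04 ± 2.04 at 4 weeks and 9.78 ± 0.61 in IFE controls (SD, n = 3 each), a difference of −1.75 ± 0.77 (95% interval −3.43 to −0.07, unadjusted p = 0.0427, adjusted p = 0.305 by limma). Without 4-week replicate 2 the difference was −0.57, and within the numbers the differences were −0.10, −3.81 and −1.33. Against 1 week, the 4-week arrays did not overlap and lay lower, as did 2.11% of all tested genes, with −1.98 ± 0.77 (adjusted p = 0.997), and −0.80 without 4-week replicate 2. At 1 week the difference from IFE controls was 0.23 ± 0.77 (95% interval −1.45 to 1.91, adjusted p = 1.00). At 10 weeks, where both arrays were close, it was −1.36 ± 0.86 (95% interval −3.24 to 0.52, adjusted p = 0.695), and with β-catenin loss −1.50 ± 0.86 (95% interval −3.38 to 0.38, adjusted p = 0.442). With array weights Tnfrsf19 at 10 weeks passed, with −1.52 (adjusted p = 0.0454 by limma), as 1 of 1547 genes, against 100 genes without weights. The Tnfrsf19 difference between β-catenin loss and SmoM2 alone was 0.25 ± 0.86 (adjusted p = 0.917), a value that without 4-week replicate 2 was −0.93.

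**Figure D2:**
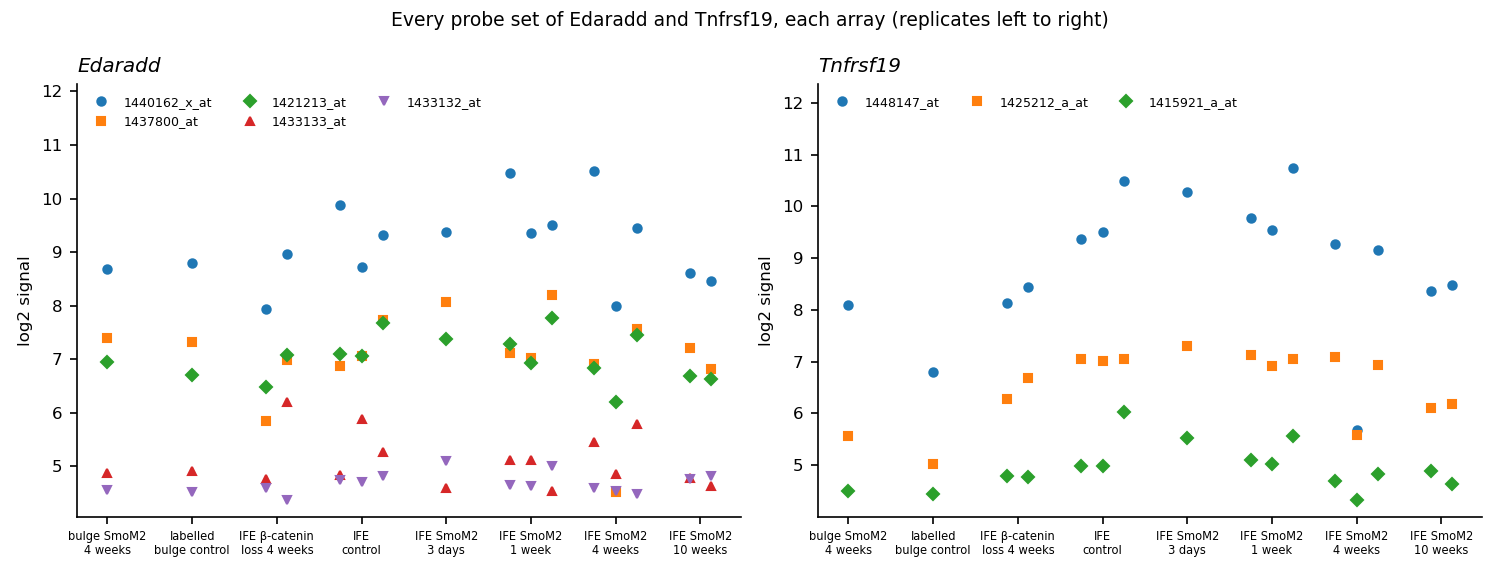
Log2 array signal (y axes) of every probe set of Edaradd (left) and Tnfrsf19 (right) in the 16 arrays, grouped along the x axis with replicates from left to right, 1 colour and marker per probe set. In 4-week replicate 2 the 3 Tnfrsf19 probe sets read 5.68, 5.58 and 4.32, below every IFE control value of the same probe set.

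The 3 probe sets of Tnfrsf19 had correlations of 0.70, 0.85 and 0.87 over the 16 arrays, which share the same libraries. Their signals in 4-week replicate 2 were 5.68, 5.58 and 4.32. Sebaceous gland markers were also lowest among IFE arrays there, at 7.97 on average against 9.37 to 10.12 in IFE controls. Bulge and outer root sheath markers were highest there, at 10.39 on average. Among the latter, Lgr5 had 10.56 and Lhx2 11.74, above every IFE control. Cd34 had 4.10 and Krt15 12.31, which are not above the IFE control range. The sebaceous markers did not go with Tnfrsf19 in every group where it was low. With β-catenin loss they averaged 10.42 and 10.05, above the control range in 1 array, and all 5 had positive differences from IFE controls, while in the array labelled bulge control they averaged 8.02 and 0 of the 5 were positive. Whether these cell populations have a part in the Tnfrsf19 value was not tested.

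Tnfrsf19 was also low in the bulge. Its signal was 8.09 in bulge SmoM2 cells and 6.80 in the array labelled control, a difference of 1.29 with 1 array each and no test. Against IFE controls, the array labelled bulge control was lower by a difference of −2.98 ± 1.09 (95% interval −5.36 to −0.61, adjusted p = 0.198 by limma), where the single bulge array borrows its spread from the replicated groups. This difference passed with array weights, at −3.14 ± 0.67, and with those 2 groups alone in the fit, at −2.98 ± 0.48. With array weights, far more genes passed in this comparison than in the main fit, as given above. With those 2 groups alone, only the 3 IFE controls are replicated, and the groups in which Tnfrsf19 spread widely are left out. In the fit of probe sets, where 2.74% passed in this comparison, 1425212_a_at fell by 2.01 (SE 0.46, adjusted p = 0.0421 by limma), with 5.02 in that array and 7.05, 7.02 and 7.05 in IFE controls. It was the only one of the 13 tested probe sets of the pathway that passed in any of the 11 comparisons. Against IFE controls, 0% of all tested probe sets passed at 3 days, 0% at 1 week, 1.58% at 4 weeks, 0.468% at 10 weeks and 0.345% with β-catenin loss. For β-catenin loss against SmoM2 alone it was 1.3%, for 4 weeks against 1 week 0%, for 10 weeks against 4 weeks 0%, for 10 weeks against 1 week 0.0154% and for bulge against IFE SmoM2 0.0883%. Bulge SmoM2 cells and IFE SmoM2 cells at 4 weeks differed by 0.05 ± 1.09 (adjusted p = 0.997).

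Edaradd, the adaptor of Edar, had wide spreads within its groups, and it too was lowest in the replicate 2 array of the IFE controls, 1 week and 4 weeks. On probe set 1440162_x_at the log2 signals were 9.87, 8.71 and 9.33 in IFE controls, 9.37 at 3 days, 10.47, 9.36 and 9.51 at 1 week, 10.52, 7.98 and 9.44 at 4 weeks, and 8.61 and 8.47 at 10 weeks. With β-catenin loss they were 7.93 and 8.97. The 4-week arrays spanned the range of all other groups' means, and both 10-week arrays lay just below the lowest control. Of all tested genes, 20.5% lay wholly below the controls at 10 weeks.

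Mean Edaradd signal was 9.32 ± 1.27 at 4 weeks and 9.30 ± 0.58 in IFE controls (SD, n = 3 each), a difference of 0.01 ± 0.56 (95% interval −1.22 to 1.24, adjusted p = 0.996 by limma). The difference was 0.48 ± 0.56 at 1 week (adjusted p = 1.00), −0.76 ± 0.63 at 10 weeks (95% interval −2.14 to 0.61, adjusted p = 0.815) and −0.87 ± 0.63 for β-catenin loss against SmoM2 alone (95% interval −2.25 to 0.51, adjusted p = 0.534). The probe sets of Edaradd disagreed on the direction at 4 weeks, with −0.89 on 1437800_at, −0.45 on 1421213_at, −0.22 on 1433132_at and 0.04 on 1433133_at. For β-catenin loss against SmoM2 alone they had 0.09, −0.05, −0.06 and 0.11 in that order, so −0.87 was seen on 1440162_x_at alone. Signals of 1433132_at lay above the 40th percentile in 2 of 16 arrays and those of 1433133_at in 7. On 1437800_at, 4-week replicate 2 had 4.52, below that percentile of its array, and the other 4-week arrays 6.90 and 7.57. The name of 1440162_x_at marks probes that may also bind other transcripts. Over the 16 arrays its correlation was 0.59 with 1421213_at, 0.50 with 1437800_at, 0.19 with 1433133_at and 0.16 with 1433132_at. In the bulge, Edaradd had 8.68 in SmoM2 cells and 8.80 in the array labelled control.

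**Figure D3:**
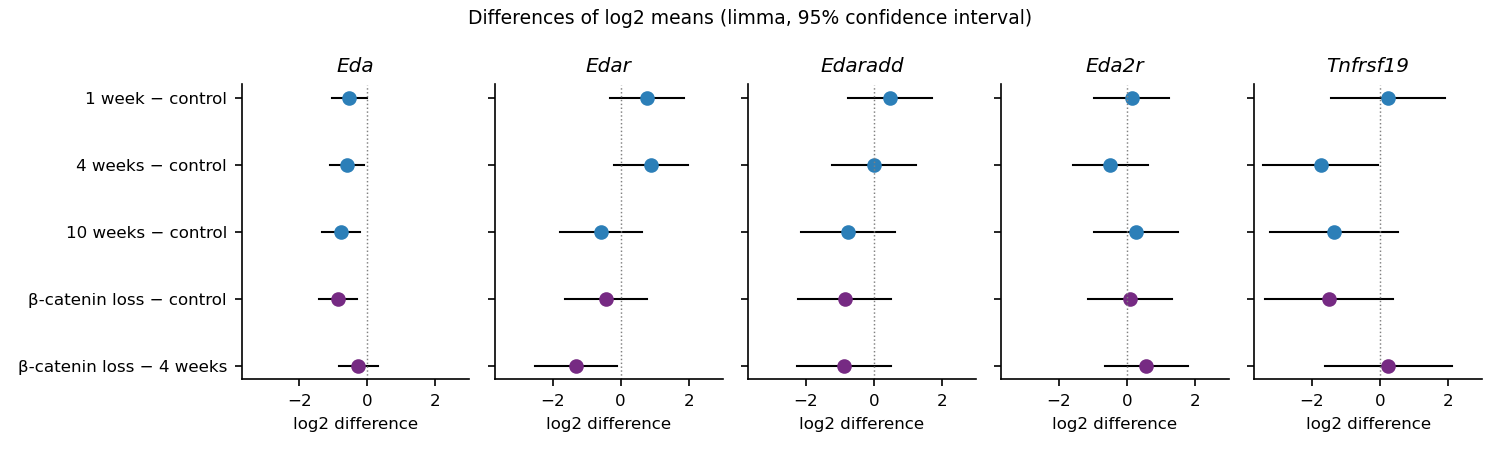
Differences of log2 means (x axes) for the 5 pathway genes in 5 comparisons, drawn as points with 95% confidence intervals from limma and named on the left with the first group minus the second. Intervals for Eda lie below 0 in all 4 comparisons with IFE controls, from −0.53 at 1 week to −0.87 with β-catenin loss, yet no gene passed after adjustment.

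The ligand and the receptors did not share 1 pattern over the 16 arrays. The correlation of Edar with Edaradd, receptor and adaptor, was 0.71, and that of Edaradd with Tnfrsf19 was 0.64. Both Edaradd values are from 1440162_x_at, whose correlations with the other Edaradd probe sets were lower, at 0.16 to 0.59. Eda2r and Tnfrsf19 had 0.56, and Edar and Eda had −0.00. These arrays share groups and numbers, so the correlations are descriptions. The genes most like each member over the 16 arrays, by Pearson correlation, were taken as 5 per gene. For Eda they were Adh6a (0.91), Ptgr2 (0.90), Cox19 (0.90), Ntrk2 (0.89) and Fmo1 (0.87). For Edar they were Zfp618 (0.93), Gsg1l (0.93), Vash2 (0.90), Pbrm1 (0.89) and Lamc1 (0.89). On 1440162_x_at alone, Edaradd was most like Nup205 (0.94), Dcaf7 (0.94), Pole (0.93), Nucks1 (0.93) and Mcm7 (0.92). Of these, Pole encodes a subunit of DNA polymerase epsilon and Mcm7 a subunit of the replicative helicase. Eda2r was most like Mad2l1bp (0.90), Nudt19 (0.89), Mrm2 (0.88), Trp53rka (0.88) and Nat2 (0.87). Tnfrsf19 was most like Dkc1 (0.93), Nrm (0.91), Sox21 (0.90), Tmem165 (0.90) and Mthfd1l (0.88).

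The rest of the pathway was followed in 5 lists. NF-κB arm genes, from TRAF adaptors to NF-κB inhibitors, showed 0 of 21 tested genes rising or falling in any IFE comparison (with array weights, 1 rose at 10 weeks against IFE controls and 1 at 10 weeks against 1 week), and their median difference was 0.20 at 4 weeks, where that of all genes was −0.05. The genes of lowest adjusted p at 4 weeks were Tnfaip3, a feedback inhibitor of NF-κB, with 0.73 ± 0.27 (adjusted p = 0.207 by limma), and Relb, an NF-κB subunit, with 0.60 ± 0.27 (adjusted p = 0.330). With the replicate number as a block Tnfaip3 passed at 4 weeks (adjusted p = 0.0400 by limma). Tnfaip3 had 8.20, 7.94 and 8.13 at 4 weeks and 7.52, 6.90 and 7.68 in IFE controls. At 10 weeks the list's median was 0.14, and Nfkbie, an inhibitor of NF-κB, had 1.01 ± 0.34 (adjusted p = 0.220). In the array labelled bulge control, Tnfaip3 rose by 2.50 ± 0.38 over IFE controls (adjusted p = 0.00375), with 9.87 there and a mean of 7.37 in IFE controls.

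Some target and partner genes of the pathway in placodes and hair passed where the pathway genes did not. The list was chosen with earlier results of these data known, so its counts are not a test of the pathway. At 4 weeks, 3 of 20 tested genes rose and 1 fell against IFE controls, where 3.24% of all tested genes passed. The list's median was 0.14. Lhx2, a transcription factor of hair follicle stem cells, had 11.65, 11.74 and 11.68 at 4 weeks and 7.12, 6.86 and 7.65 in IFE controls, a rise of 4.48 ± 0.68 (adjusted p = 0.0101 by limma). Lef1, a partner of β-catenin, had 7.25, 7.26 and 7.34 at 4 weeks and 5.81, 6.06 and 5.89 in IFE controls, a rise of 1.37 ± 0.19 (adjusted p = 0.00884). Lgr4, an R-spondin receptor, rose by 1.78 ± 0.36 (adjusted p = 0.0265), and Wnt10a, a Wnt ligand of skin, fell by 1.16 (SE 0.26, adjusted p = 0.0362), with 7.67, 8.23 and 8.48 at 4 weeks and 9.14, 9.25 and 9.46 in IFE controls. With the replicate number as a block the same comparison had 3 that rose and 3 that fell, the added ones being Foxq1 (adjusted p = 0.0303) and Lrp4 (adjusted p = 0.0403). Over 21 alternatives Lef1 passed in 21, Lhx2 in 20, Lgr4 in 15 and Wnt10a in 11. Lhx2 is also among the 8 bulge and outer root sheath markers, of which 4 rose at 4 weeks.

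At 10 weeks, 3 of the 20 rose and 0 fell, where 0.7% of all tested genes passed. With array weights, where far more genes passed in this comparison, 7 rose and 6 fell. Follistatin (Fst), an inhibitor of activin and BMP signalling, had 11.56 and 11.61 at 10 weeks and 8.51, 7.56 and 8.25 in IFE controls, a rise of 3.48 ± 0.51 (adjusted p = 0.0166 by limma). Lhx2 rose by 3.89 ± 0.75 (adjusted p = 0.0461) and Lef1 by 1.19 ± 0.21 (adjusted p = 0.0319). Over 20 alternatives Fst passed in 15, Lef1 in 11 and Lhx2 in 11. At 1 week 0 of 20 passed. Of the 25 genes listed, Dkk1, Dkk4 and Fgf20, known in placodes, lay below the filter and were not tested. Shh, the hedgehog ligand, had 0.04 at 4 weeks (adjusted p = 0.977) and −0.88 at 10 weeks (adjusted p = 0.395).

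In the comparison of β-catenin loss with SmoM2 alone, 1 of 20 fell and 0 rose. Lef1 had 5.58 and 5.59 with β-catenin loss and 7.25, 7.26 and 7.34 with SmoM2 alone, and fell by 1.70 (SE 0.21, adjusted p = 0.00948 by limma). Those β-catenin loss values lay just below the 3 IFE control values. Against IFE controls, 0 of 20 passed with β-catenin loss. In the array labelled bulge control, 1 of 20 rose and 3 fell relative to IFE controls: Lhx2 rose by 4.68 (adjusted p = 0.0177 by limma), Foxq1, a hair shaft regulator, fell by 5.35 (adjusted p = 0.0213), Bmp4 fell by 3.1 (adjusted p = 0.0349) and Wnt10a fell by 1.97 (adjusted p = 0.0118).

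**Figure D4:**
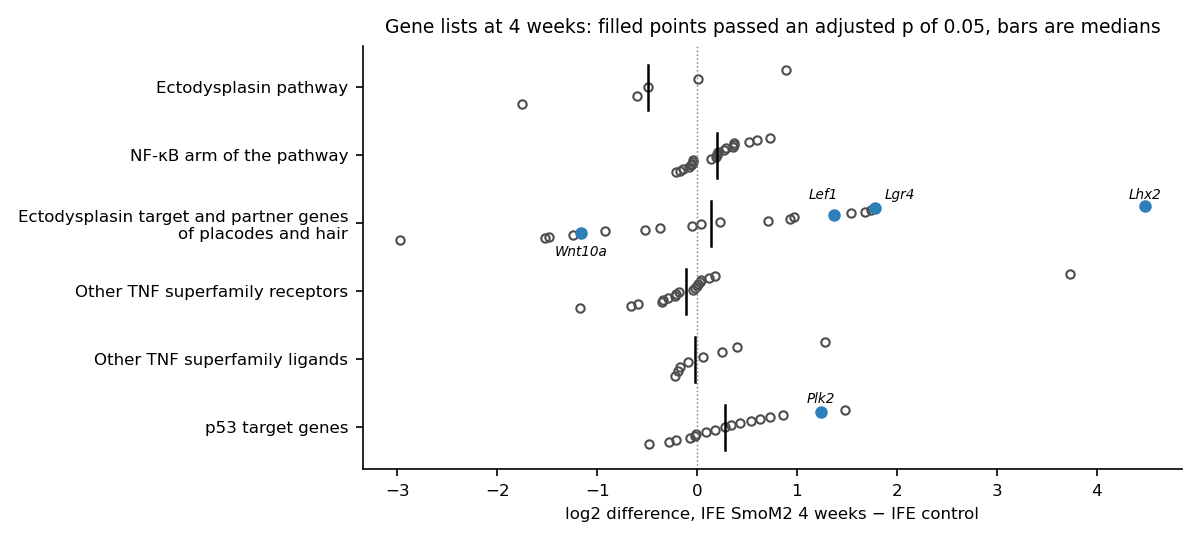
Log2 difference of IFE SmoM2 at 4 weeks minus IFE control (x axis) for each tested gene of the pathway and of 5 related lists (rows), with filled points for adjusted p under 0.05 and vertical bars for list medians. The 5 pathway genes have 0 filled points, the placode and hair list has 4 (Lhx2, Lgr4, Lef1 and Wnt10a), and the p53 list has Plk2.

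Among the other receptors of the TNF receptor superfamily, 0 of 18 tested genes passed in any IFE comparison (with array weights, 1 rose at 10 weeks against IFE controls and 2 at 10 weeks against 1 week), with medians of −0.11 at 4 weeks and −0.11 at 10 weeks. Tnfrsf21 had the lowest adjusted p at 4 weeks, with −1.17 ± 0.31 (adjusted p = 0.0681 by limma), and Tnfrsf11b, the decoy receptor osteoprotegerin, had 3.73 ± 1.22 (adjusted p = 0.139). In the array labelled bulge control Tnfrsf21 fell by 3.02 (SE 0.44, adjusted p = 0.00282), with 5.56 there and 8.63, 9.0 and 8.13 in IFE controls. Of the other TNF ligands, 0 of 8 tested genes passed in any comparison, although 1 rose at 10 weeks with array weights, and Tnfsf11, the ligand RANKL, had 1.28 ± 0.47 at 4 weeks (adjusted p = 0.200).

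Of p53 target genes, listed because Eda2r is one, 1 of 17 rose and 0 fell at 4 weeks, with a median of 0.28 where that of all genes was −0.05. Plk2, a polo-like kinase, had 8.40, 8.53 and 8.79 at 4 weeks and 7.41, 7.05 and 7.55 in IFE controls, a rise of 1.24 ± 0.24 (adjusted p = 0.0255 by limma) that passed in 12 of 21 alternatives. The list's median was 0.33 at 1 week and 0.39 at 10 weeks, with 0 of 17 passing in either. With array weights 1 rose at 10 weeks. Eda2r, over the same arrays, had −0.49 at 4 weeks, 0.14 at 1 week and 0.27 at 10 weeks.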

How the data were processed

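The authors deposited log2 array signals of 45101 probe sets in 16 arrays, with array medians of 5.38 to 5.53. R 2.14.0 is named in the submitters' processing notes, and how background correction and normalization were done is not given there or in the labels. Per the labels' protocols, RNA was amplified with a 3' expression kit. Arrays give no counts, so their number limits the precision.

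Probe sets were named from the platform annotation: 34945 had 1 gene, 932 several and 9224 none. One limma 3.58.1 model (R 4.3.3) of 8 group means over all arrays was fitted, with 8 residual degrees of freedom, after the filter on low signal (40th percentile, 2 arrays). The probe set with the highest mean stood for each gene. Tables and plots used Python 3.11.15, pandas 2.3.3, numpy 2.4.6 and matplotlib 3.10.9.

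The members and lists were chosen with earlier results of these data known, as were the motifs. Named genes were the 5 members, up to 4 genes of largest change past the threshold per list and comparison or the 2 of lowest adjusted p, genes called only with the block, and the 5 most correlated genes per member. Marker genes for the cell types were summarised as mean signals.

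Replicate numbers pair the controls, 1-week and 4-week arrays: same-number deviations from group means correlated at 0.34 to 0.70 in 9 pairs and other numbers at −0.53 to −0.00 in 18 pairs. In 14 pairs of the same replicate number with 10 weeks or β-catenin loss it was −0.18 to 0.12. In 13 such pairs of the same experiment number it was −0.18 to 0.18. Alternatives covered probe set choice, filter, normalization, block, sex, array weights, variance model and left-out arrays.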

Additional observations from a re-analysis of the deposited data

Results flagged for a closer look

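Tnfrsf19 signals differed in opposite directions in the bulge and the IFE. The bulge difference has no test, and the IFE difference at 4 weeks did not pass (adjusted p = 0.305 by limma). Without 4-week replicate 2 the IFE difference was −0.57. Tnfrsf19 was 1.29 log2 units higher in the bulge SmoM2 array than in the array labelled bulge control, with 8.09 and 6.80. In the IFE all 3 SmoM2 arrays at 4 weeks, with 9.27, 5.68 and 9.16, lay below the mean of the IFE controls, 9.78. These values are from probe set 1448147_at, and the other probe sets did not all show the pattern. On 1425212_a_at, 4-week replicate 1 had 7.09, above the IFE controls at 7.05, 7.02 and 7.05, with 5.57 in bulge SmoM2 cells and 5.02 in the array labelled bulge control. On 1415921_a_at the bulge values were 4.50 in SmoM2 cells and 4.44 in that array, both below the 40th percentile of 4.91. The difference between these contrasts was not tested, since each bulge group has 1 array. The array labelled bulge control also had Gli1 at 9.89, near the 9.96 of bulge SmoM2 cells, and the part of this in the Tnfrsf19 value was not tested.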

How the results depend on the processing

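The 55 tested differences of the 5 genes were recomputed as 1024 alternative values over 29 settings, of which 974 kept direction and side of the threshold, 46 turned direction without passing in either fit and 4 passed. Those 4 were, with array weights, Eda at 10 weeks (−0.72), Tnfrsf19 at 10 weeks (−1.52) and Tnfrsf19 in the array labelled bulge control against IFE controls (−3.14), and the last with only the groups compared (−2.98). The cause was not tested. The replicate block changed no other call of the 5 genes, with Edar at −1.49 (adjusted p = 0.0954 by limma) for β-catenin loss against SmoM2 alone. In pairs with 10 weeks or β-catenin loss, same replicate numbers correlated at −0.18 to 0.12 and same experiment numbers at −0.18 to 0.18. Calls that the block by replicate number adds there therefore rest on a number and not on a pairing. They were Pmaip1 at 10 weeks (1.3), Shh (−1.21) and Pmaip1 (1.77) for β-catenin loss against controls, and Shh (−1.25), Lrp4 (1.58), Tnfrsf11b (−5.22) and Pmaip1 (1.14) for β-catenin loss against SmoM2 alone, where the block called 1347 genes.

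Turned values were as follows. With array weights they were Eda 0.042 and Edar 0.043 at 3 days, Eda2r −0.067 for β-catenin loss against control and −0.029 for 10 weeks against 1 week, and Tnfrsf19 −0.20 for β-catenin loss against SmoM2 alone, −0.055 for 10 against 4 weeks and −0.39 for bulge against IFE SmoM2. With the probe set of highest variance Edaradd had −0.89 at 4 weeks, 0.090 for β-catenin loss against SmoM2 alone, 0.68 for 10 against 4 weeks, 0.10 for the array labelled bulge control against IFE controls and 1.06 for bulge against IFE SmoM2. With the mean of all probe sets Edaradd had −0.30 at 4 weeks and 0.018 for bulge against IFE SmoM2, where Tnfrsf19 had −0.34. Quantile normalization gave Edaradd −0.037 at 3 days and Edar −0.017 for 4 weeks against 1 week, and median centring gave Edaradd −0.050 at 4 weeks. The Y-linked covariate gave Edaradd −0.077 at 3 days and −0.12 at 4 weeks. The replicate block gave Edaradd −0.35 and Eda2r −0.082 at 3 days, and by experiment number Edar −0.30 for bulge against IFE SmoM2.

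Leaving out 1 array at a time turned some differences, with ranges at 3 days of −0.18 to 0.13 for Eda, −0.28 to 0.22 for Edar, −0.23 to 0.35 for Edaradd and −0.22 to 0.47 for Eda2r. At 1 week they were −0.31 to 0.62 for Eda2r and −0.12 to 0.58 for Tnfrsf19, at 4 weeks −0.59 to 0.68 for Edaradd, and at 10 weeks −0.18 to 0.52 for Eda2r. Eda2r had −0.46 to 0.64 for β-catenin loss against control, and Tnfrsf19 −0.93 to 0.87 for β-catenin loss against SmoM2 alone. For 4 weeks against 1 week they were −0.29 to 0.071 for Eda, −0.44 to 0.72 for Edar and −1.07 to 0.20 for Edaradd. Tnfrsf19 had −0.79 to 1.01 for 10 against 4 weeks, and Eda2r −0.35 to 0.46 for 10 weeks against 1 week. In the bulge they were −0.39 to 0.12 for Edar in the array labelled bulge control against IFE controls, and −0.40 to 0.76 for Edar and −1.12 to 0.67 for Tnfrsf19 against IFE SmoM2. Edar could not be computed from the mean of its probe sets, which fell below the filter.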
